A study of Mus musculus with 2 samples.

Results

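Id1, Id2, Id3, Id4, Smad6, Smad7 and Sox4 were followed as a group of 7 genes out of 31053 measured in mouse pancreatic islet cells. They were picked by symbol, with their pattern across the cell types and diets of these libraries already known, so their levels are given as a description. The study set out to describe islet cell subpopulations in a prediabetes model made by high-fat feeding. It holds 1 library labelled HFD, from mice on a high-fat diet, and 1 library labelled CD, a diet name that the labels do not spell out. Both were made from islets of C57BL/6J mice aged 13 weeks, released with collagenase, picked by hand, dispersed into single cells and sequenced with droplet-based 3′ chemistry. With 1 library per diet and the number of mice in each not given in the sources used here, no difference between the diets has a replicate check. All intervals given are exact 95% intervals that cover counting error only.

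Id proteins are helix-loop-helix factors without a DNA-binding region. They pair with the ubiquitous E proteins, the products of Tcf3, Tcf4 and Tcf12, and so keep tissue-specific factors such as NeuroD1 from DNA. Transcription of Id1, Id2 and Id3 is a classic response to bone morphogenetic proteins (BMPs), whose receptors phosphorylate Smad1, Smad5 and Smad9. Those Smads enter the nucleus with Smad4. Smad6 and Smad7 are the inhibitory Smads: both are induced by the pathway and restrain it, Smad6 mainly its BMP arm and Smad7 the BMP and TGF-beta arms. Sox4 encodes an HMG-box factor of the SoxC group that is needed for normal endocrine cell formation in the mouse pancreas.

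The upstream sequences of Id2, Id3 and Smad6 are shown because Smad proteins are known to act on such elements and because the Id genes were detected together in alpha cells, as described below. They are RefSeq windows on GRCm38.p6, 5′ to 3′ on the gene's own strand, and run over 250 bases before the RefSeq transcription start, with 4 bases after it for Smad6. The GENCODE spans of Id2 and Id3 given below begin further upstream, so by that annotation both windows lie inside the gene. Capitals mark GGCGCC, a GC-rich element bound by BMP-activated Smads, CAGAC, the Smad-binding element, and GTCTAGAC, its palindromic form, each searched on both strands. No capitals overlap between motifs.
Id2, chr12:25096093-25096342, minus strand: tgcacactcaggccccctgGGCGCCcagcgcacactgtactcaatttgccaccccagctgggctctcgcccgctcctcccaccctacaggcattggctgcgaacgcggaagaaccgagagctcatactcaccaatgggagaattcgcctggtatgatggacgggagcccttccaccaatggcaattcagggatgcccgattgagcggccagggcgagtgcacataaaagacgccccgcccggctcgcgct
Id3, chr4:136143572-136143821, plus strand: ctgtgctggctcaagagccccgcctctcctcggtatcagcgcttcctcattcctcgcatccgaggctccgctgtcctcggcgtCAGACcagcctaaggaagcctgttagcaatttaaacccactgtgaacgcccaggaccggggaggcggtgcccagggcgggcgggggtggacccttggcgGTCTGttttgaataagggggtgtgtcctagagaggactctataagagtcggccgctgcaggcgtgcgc
Smad6, chr9:64022056-64022309, minus strand: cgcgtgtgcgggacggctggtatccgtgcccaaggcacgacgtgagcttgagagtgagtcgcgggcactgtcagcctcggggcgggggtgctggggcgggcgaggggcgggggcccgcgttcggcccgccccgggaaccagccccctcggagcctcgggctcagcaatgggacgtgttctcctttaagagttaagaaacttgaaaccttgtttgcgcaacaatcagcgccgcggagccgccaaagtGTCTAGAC
Over 32851 promoter windows of 300 bases, 11.9% held GGCGCC, 49.6% held CAGAC and 0.213% held GTCTAGAC, so the Smad6 palindrome is the rare one of the motifs. It spans the annotated start. In windows not printed, Id4 held 1 GGCGCC and Sox4 held 2 copies of CAGAC. A window was searched for 5 of the 7 genes. A match of letters describes the window and does not show that it is used.

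In the mm10 annotation (GENCODE M21), Id1 lies on chromosome 2 at 152736251 to 152737410, Id2 on chromosome 12 at 25093799 to 25097140 and Id3 on chromosome 4 at 136143497 to 136145755. Id4 lies on chromosome 13 at 48261228 to 48266026, Smad6 on chromosome 9 at 63953076 to 64022059, Smad7 on chromosome 18 at 75367529 to 75395935 and Sox4 on chromosome 13 at 28948919 to 28953713. Id4 and Sox4 overlap other annotated genes, which lie on the opposite strand.

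Cells with at least 1500 UMIs (distinct captured RNA molecules), at least 500 genes and at most 15% mitochondrial UMIs numbered 12062 in HFD and 9667 in CD, with a median of 17673 and 21895 UMIs. Alpha cells (Gcg at 10% of UMIs or more) numbered 2005 in HFD and 1272 in CD. Beta cells (Ins1 and Ins2 at 30% or more) numbered 7433 and 6515, delta cells (Sst at 3% or more) 662 and 570, and PP cells (Ppy at 20% or more) 535 and 328, in the same order. Endothelial cells, with at least 4 of 8 endothelial markers, numbered 545 and 345. All 8 beta and all 8 endothelial markers were highest in their own class in both libraries. So were 4 of 5 delta markers, 2 of 4 PP markers, and 7 of 9 alpha markers in HFD against 6 of 9 in CD. The 8 endothelial markers also define that class, and Ins1, Ins2, Gcg, Sst and Ppy define the others. For these genes the order was largely fixed by the class limits, so it is no check on them. Median mitochondrial shares were higher in HFD than in CD in every class, for example 4.78% and 2.73% of UMIs in alpha cells. The libraries shared 26 barcodes among the cells kept.

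A level is given below in CPM, the UMIs of a gene per 1000000 UMIs outside Ins1, Ins2, Gcg, Sst and Ppy. The hormone genes define the classes and took different shares of each, so they were left out of the total.

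UMIs of endothelial marker genes were found in every endocrine class and are given first, because endothelial cells held the Id genes at high levels. All 8 endothelial markers were detected in each endocrine class of each library. Their summed level was 165.7 CPM in HFD and 63.0 CPM in CD alpha cells, with all 8 higher in HFD. It was 102.3 CPM in HFD and 39.0 CPM in CD beta cells, again with all 8 higher in HFD. Delta cells held 247.5 and 114.5 CPM and PP cells 88.2 and 38.5 CPM, HFD before CD, with 7 of 8 higher in HFD. Mesenchymal markers summed to 62.8 and 33.4 CPM in HFD and CD alpha cells and to 40.4 and 11.2 CPM in HFD and CD beta cells, all 8 higher in HFD, with 1 at 0 in CD alpha cells. Macrophage markers summed to 166.4 CPM in HFD and 116.7 CPM in CD alpha cells, 7 of 8 higher in HFD, and to 138.7 and 85.4 CPM in beta cells, 8 of 8 higher. The part of mesenchymal and macrophage RNA in the results was not tested apart from the endothelial part. Results on endocrine cells are also given for cells without any endothelial marker UMI, a setting added after the data were seen. It kept 1750 of 2005 HFD and 1105 of 1272 CD alpha cells, and 5971 of 7433 HFD and 5295 of 6515 CD beta cells. The markers were not found alike. Egfl7 was found in 9.67% of HFD and 15.3% of CD delta cells, against 1.06% and 0.702% for Kdr. Esam was found in 5.24% of HFD and 6.45% of CD alpha cells, against 1.85% and 0.472% for Kdr. A cell with 1 UMI of any marker was left out. Whether the marker UMIs came from endothelial cells was not tested.

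Id1 and Id3 were high in endothelial cells and, far below them, higher in alpha cells than in the other endocrine classes. In endothelial cells, Id1 reached 1139 CPM in HFD (interval 1099 to 1180) and 1434 CPM in CD (1379 to 1491). Id3 reached 1495 CPM in HFD and 1920 CPM in CD endothelial cells. Id1 had at least 1 UMI in 89.7% of HFD and 92.2% of CD endothelial cells, and Id3 in 96.1% and 95.1%. Among the smaller classes, mesenchymal cells held Id3 at 2012 CPM in HFD and 1449 CPM in CD, and Id1 at 650.3 CPM in HFD and 518.7 CPM in CD.

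Among the endocrine classes, alpha cells had the highest levels of both genes in both libraries. Id1 stood at 44.4 CPM in HFD alpha cells (40.6 to 48.5) and at 27.2 CPM in CD alpha cells (23.9 to 30.9). Beta cells held 7.0 CPM of Id1 in HFD and 3.28 CPM in CD. Id3 stood at 54.5 CPM in HFD and 45.3 CPM in CD alpha cells, against 10.9 CPM in HFD and 5.66 CPM in CD beta cells. Alpha cells thus exceeded beta cells 6.35-fold in HFD and 8.31-fold in CD for Id1, and 5.01-fold in HFD and 8.01-fold in CD for Id3. Of all genes measured at 50 UMIs or more, 13.8% in HFD and 14.9% in CD were at least 1.5-fold higher in alpha than in beta cells.

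Without cells holding an endothelial marker UMI, the gap between alpha and beta cells was wider. Id1 was then at 37.4 CPM in HFD alpha cells against 2.26 CPM in HFD beta cells, 16.6-fold apart. In CD it was at 25.0 CPM in alpha against 1.44 CPM in beta cells, 17.4-fold apart. Id3 was at 43.6 against 3.70 CPM in HFD and at 42.4 against 3.17 CPM in CD, alpha before beta. Delta cells of this kind held few molecules: 2 UMIs of Id1 in HFD and 8 in CD, and 8 UMIs of Id3 in each library. PP cells without an endothelial UMI held 27 UMIs of Id1 in HFD and 5 in CD. Alpha cells kept most of their Id1 and Id3 molecules under this setting, while beta and delta cells lost most of theirs.

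The share of cells with a UMI shows the same order at matched depth. After each cell was thinned to 1000 non-hormone UMIs, Id1 was found in 3.89% of HFD and 3.46% of CD alpha cells (11.7% and 8.81% before thinning). In beta cells it was found in 0.485% of HFD and 0.462% of CD cells (2.73% and 1.98% before thinning). Islet macrophages, taken as a type with little Id1, gave 0.538% in HFD and 1.43% in CD (1.08% and 1.43% before thinning), from 186 and 140 cells with a median of 4035 and 4611 non-hormone UMIs, against 5422 and 6371 in alpha cells. Before thinning, that macrophage share came from 2 cells in each library, with intervals of 0.130% to 3.83% in HFD and 0.173% to 5.07% in CD. Beta cells, and delta cells at 0.302% and 0.351%, lay at or below the macrophage share of Id1. Resting on so few cells, it cannot settle whether they hold more than background. Id3 was found in 4.49% of HFD and 4.33% of CD alpha cells after thinning, against 0.754% and 0.771% of beta cells. Macrophages gave 3.23% in HFD and 4.29% in CD for Id3, at 56.7 and 34.1 CPM, so they cannot serve as a type without it. Free RNA, read from barcodes with 10 to 100 UMIs, held 80.6 CPM of Id1 in HFD and 76.7 CPM in CD. Its share of each class was estimated from only 3 to 10 genes foreign to that class. At those shares, beta cells held 0.290 times in HFD and 0.248 times in CD the Id1 that free RNA would bring, and alpha cells 8.44 times in HFD and 2.46 times in CD.

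Most alpha cells had no Id1 or Id3 molecule, and a small number had many. Id1 was absent from 1770 of 2005 HFD alpha cells, found as 1 UMI in 140, as 2 or 3 UMIs in 63 and as 4 or more in 32. In CD alpha cells the counts were 1160 without, 69 with 1, 26 with 2 or 3 and 17 with 4 or more UMIs. The highest cell of each library held 15, and in both it was a cell with 2 or more endothelial marker UMIs. Among alpha cells without an endothelial UMI, 20 in HFD and 12 in CD had 4 or more Id1 UMIs. The highest of these held 11 in HFD and 12 in CD.

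Id2, which is also expressed in immune cells, followed another order. Macrophages had the highest level, 230.6 CPM in HFD and 200.1 CPM in CD, and endothelial cells had 119 CPM in HFD and 133 CPM in CD. Among endocrine cells, delta cells led with 40.0 CPM in HFD (32.8 to 48.3) and 29.6 CPM in CD (24.1 to 35.9). Alpha, beta and PP cells lay between 13.0 and 17.9 CPM, and neighbours among them overlapped in their intervals. Delta cells exceeded beta cells 2.86-fold in HFD and 2.27-fold in CD. Background shares for a delta excess of 1.5-fold or more were 26.5% of genes in HFD and 22.9% in CD. Leaving out cells with an endothelial UMI left the delta level of Id2 at 40.0 CPM in HFD and 31.2 CPM in CD.

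Id4, the least studied member of the family, was also highest in delta cells among endocrine classes. It stood at 11.5 CPM in HFD and 11.6 CPM in CD delta cells, from 31 and 40 UMIs. Beta cells held 1.51 CPM in HFD and 1.66 CPM in CD, so delta cells were 7.58-fold and 6.97-fold higher. Alpha cells held 3.16 CPM in HFD and 2.83 CPM in CD, and endothelial cells 63.7 and 80.3 CPM. In delta cells without an endothelial UMI, Id4 was at 10.6 CPM in HFD and 11.2 CPM in CD.

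The inhibitory Smads split by cell type. Smad6 was an endothelial transcript: 75.9 CPM in HFD (65.9 to 87.1) and 126 CPM in CD (110 to 143) endothelial cells. Alpha cells held 16 UMIs of it in HFD and 3 in CD, and beta cells 38 in HFD and 16 in CD. Without cells that had an endothelial UMI, 4 of those alpha UMIs remained in HFD and 0 in CD. The interval of that CD count reached up to 0.494 CPM. Beta cells kept 4 in HFD and 2 in CD. Delta cells held 3 UMIs in HFD, of which 0 remained, and 1 in CD, which remained. Most Smad6 UMIs of alpha and beta cells thus lay in cells that also held an endothelial marker UMI.

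Smad7 was found in all 5 classes and varied least among endocrine cells. It stood at 17.7 CPM in HFD and 12.5 CPM in CD alpha cells, and at 11.4 CPM in HFD and 10.3 CPM in CD beta cells. Delta cells held 17.8 and 17.7 CPM and PP cells 13.6 and 15.7 CPM, HFD before CD. Endothelial cells held 246 CPM in HFD and 249 CPM in CD, against which the endocrine classes were low and close together. The intervals of classes next to each other in rank overlapped in both libraries. Further apart in rank, the beta interval lay below that of delta cells in both libraries. It also lay below that of alpha cells in HFD and of PP cells in CD.

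Sox4 was the one gene of the group with a higher level in beta than in alpha cells. Alpha cells held 48.5 CPM in HFD and 63.4 CPM in CD, and beta cells 66.5 CPM in HFD and 102 CPM in CD. On all UMIs as the total, hormones included, the CD difference turned to a log2 of 0.13 in favour of alpha cells. Delta cells held 103.6 CPM in HFD and 65.8 CPM in CD, PP cells 49.5 and 33.2 CPM, and endothelial cells 202 and 175 CPM. After thinning, a Sox4 UMI was found in 6.22% of HFD and 8.63% of CD beta cells, against 1.08% of HFD and 1.43% of CD macrophages.

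**Figure D1:**
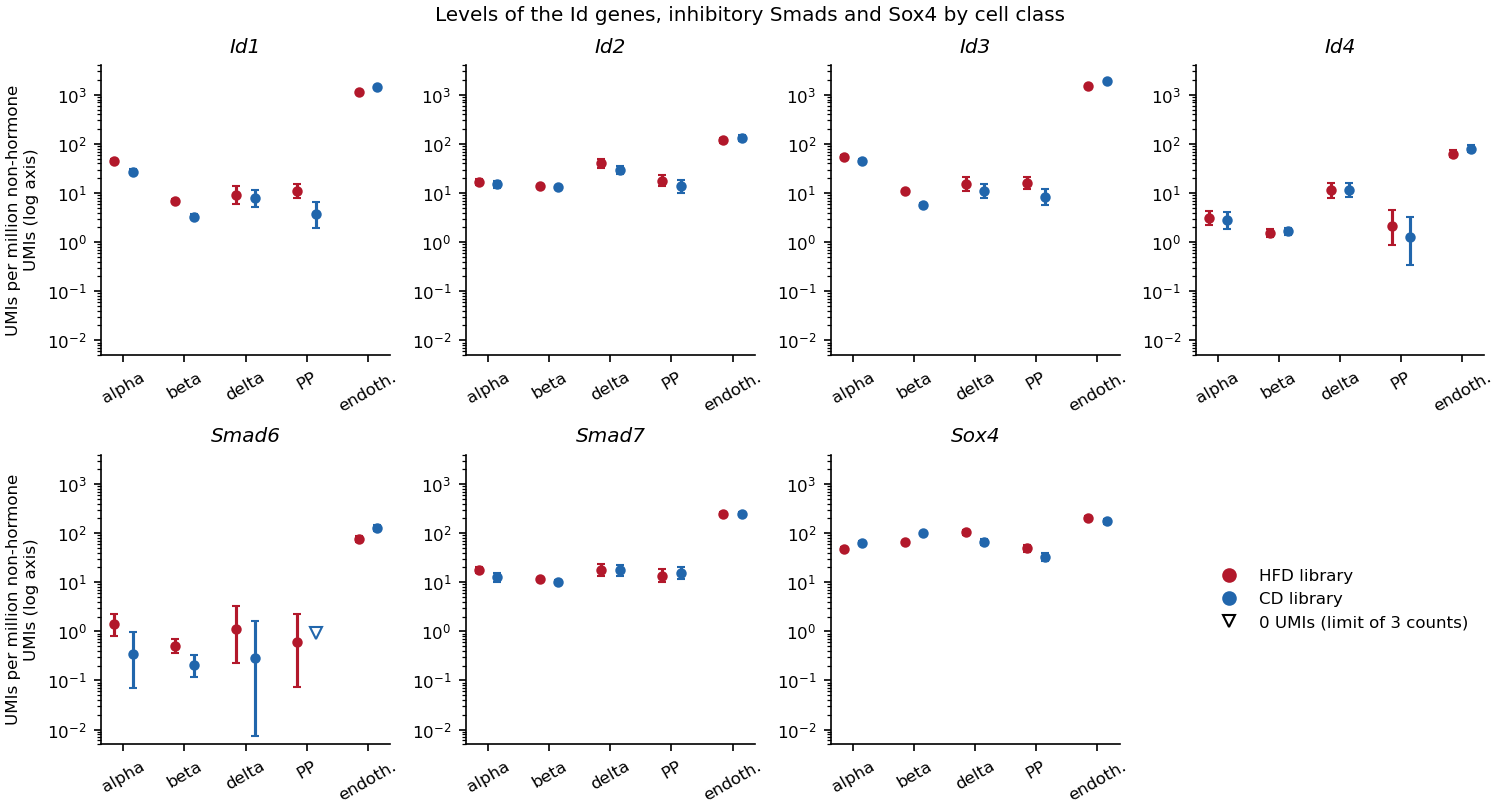
Level of each gene (CPM of non-hormone UMIs, log axis) in 5 cell classes, HFD left and CD right; bars are exact 95% Poisson intervals, and an open triangle marks the limit of 3 counts where no UMI was found. Every gene is highest in endothelial cells among these classes; Id1 and Id3 are next highest in alpha cells, and Id4 in delta cells.

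Counted over classes, 13 pairs of gene and class were at least 1.5-fold from beta cells in both libraries, all of them higher. All 7 genes were among them in endothelial cells, Id1, Id3 and Id4 in alpha cells, and Id2, Id4 and Smad7 in delta cells. No pair in PP cells was. Of all genes, 27.2% in HFD and 27.3% in CD were this much higher in endothelial than in beta cells, and 14.4% and 13.3% in PP cells. The shares of genes this much lower than in beta cells were, HFD before CD, 25.1% and 23.1% in alpha, 15.5% and 15.2% in delta, 26.4% and 25.8% in PP and 39.1% and 40.8% in endothelial cells.

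Id1, Id2 and Id3 were found in the same alpha cells. Over 2005 HFD alpha cells, log-scaled Id1 and Id3 correlated with a Pearson r of 0.42, and over 1272 CD alpha cells with an r of 0.46. Id2 and Id3 gave 0.26 in HFD and 0.27 in CD, and Id1 and Id2 gave 0.23 and 0.22. These values share the library and the depth of each cell, and sparse counts hold them down. Of the 21 pairs among the 7 genes, 5 reached an r of 0.1 in both libraries: these 3, and Smad6 with Id1 and with Id3. The Smad6 values rest on 11 HFD and 2 CD alpha cells with a Smad6 UMI. Of 8417 genes seen in at least 5% of CD alpha cells, 0.154% reached this r in both libraries with Id1, 0.0356% with Id2 and 0.0475% with Id3. Without endothelial UMIs these shares were 0.132%, 0.024% and 0.0962%.

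Both Smad6 pairs were lost once cells with an endothelial marker UMI were left out, and the Id pairs were not. In alpha cells without an endothelial UMI, Id1 and Id3 gave an r of 0.36 in HFD and 0.44 in CD, and Id2 and Id3 gave 0.25 and 0.28. Id1 and Id2 gave 0.22 in HFD and 0.25 in CD. These were the only 3 pairs left at 0.1 or more in both libraries. Over all alpha cells, thinned to 1000 UMIs per cell, Id1 and Id3 still gave 0.21 in HFD and 0.20 in CD. Id1 and Id2 then dropped to 0.08 in HFD. Of all thinned HFD alpha cells, 22 held both Id1 and Id3, where the product of their shares would give 3.50. In CD 11 cells did, against 1.91. Without cells holding an endothelial UMI, 17 HFD cells did, against 2.41, and 9 CD cells, against 1.59. Id2 and Id3 were then found together in 2 HFD cells, against 1.24, and in 4 CD cells, against 1.02.

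**Figure D2:**
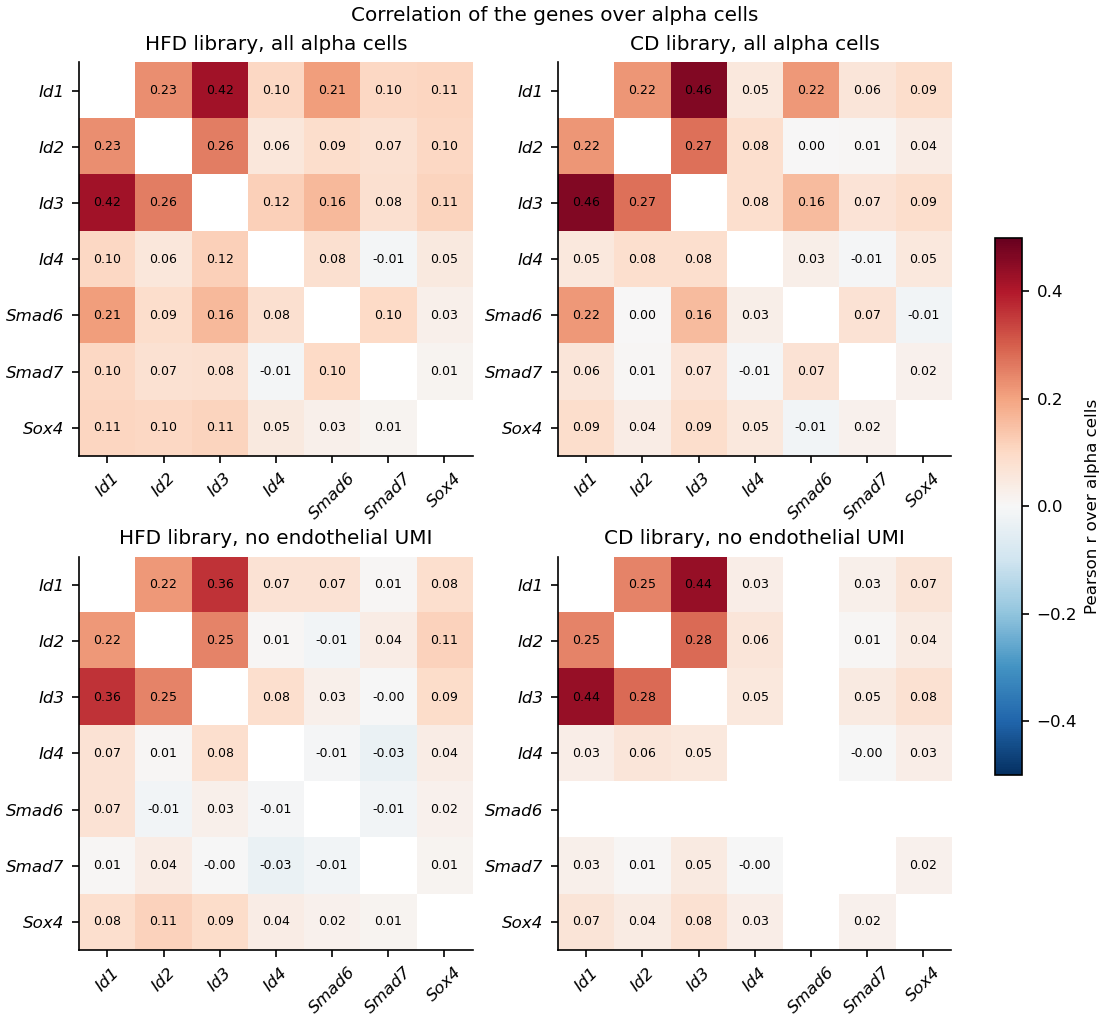
Pearson r between the 7 genes over alpha cells, HFD left and CD right; the upper maps use all alpha cells and the lower maps those without an endothelial marker UMI, and blank fields have no UMI to correlate. The Id1, Id2 and Id3 block stays in all 4 maps, from 0.22 to 0.46, while the Smad6 values of the upper maps are lost below.

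The share of alpha cells with Id3 climbed with the number of Id1 UMIs. In HFD it was 10.8% of cells without Id1, 35.7% of cells with 1 Id1 UMI and 63.2% of cells with 2 or more. In CD it was 10.8%, 29.0% and 81.4%. Median depth did not climb with it: 5448, 5131 and 5317 non-hormone UMIs in HFD, and 6393, 6269 and 6004 in CD. Id2 behaved alike, found in 6.10%, 15.7% and 31.6% of HFD and in 7.16%, 14.5% and 37.2% of CD alpha cells.

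Alpha cells without an endothelial UMI were then placed in 4 bins by their summed Id1 and Id3 UMIs. Cells with 4 or more made up 3.09% of these cells in HFD (54 cells) and 3.53% in CD (39 cells). Their Id2 level was 91.2 CPM in HFD (59.5 to 133.6) and 88.6 CPM in CD (57.3 to 130.8). In cells with none, Id2 was at 9.30 CPM in HFD (7.28 to 11.7) and 8.92 CPM in CD (6.70 to 11.6). The intervals of the richest bin overlapped those of endothelial cells, 106 to 133 CPM in HFD and 117 to 151 CPM in CD, although no endothelial marker UMI was present in these alpha cells. Smad7 gave 24.5 CPM in HFD (9.87 to 50.6) and 14.2 CPM in CD (3.86 to 36.3) in the richest bin, overlapping the 15.9 CPM in HFD and 11.6 CPM in CD of cells with none. Sox4 was at 122.7 CPM in HFD and 95.7 CPM in CD in the richest bin, against 46.1 CPM in HFD and 52.7 CPM in CD in cells with none. The glucagon share was lower in the richest bin, with a median of 18.8% of UMIs in HFD and 23.5% in CD, against 22.7% in HFD and 28.4% in CD in cells with none. The median mitochondrial share differed little, at 5.02% in HFD and 2.92% in CD in the richest bin against 4.75% and 2.70%.

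**Figure D3:**
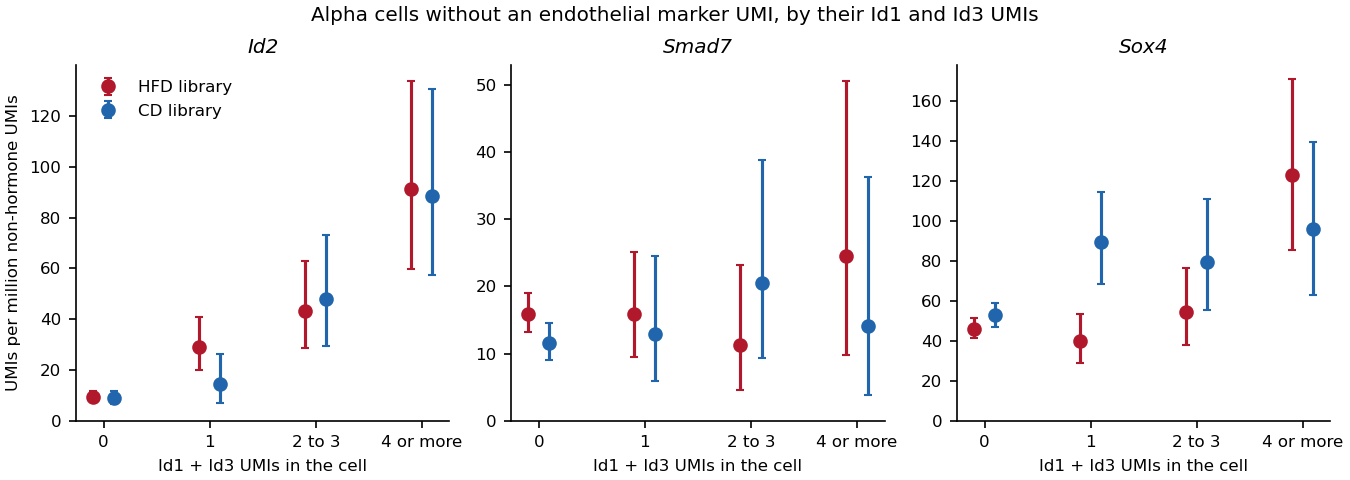
Level of Id2, Smad7 and Sox4 (CPM of non-hormone UMIs) in alpha cells without an endothelial marker UMI, binned by the Id1 and Id3 UMIs of the cell, HFD left and CD right; bars are exact 95% Poisson intervals. Id2 climbs bin by bin to about 90 CPM in both libraries, Smad7 stays within overlapping intervals, and Sox4 is highest in the richest bin.

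Among the same 8417 genes, the genes most like Id1 by r were Id3 and Id2. Ranked by r in CD, they held places 1 and 3 in HFD. Id1, Id2 and Id3 were followed with earlier results of both libraries known, so their HFD places are no independent check. For Id3 the nearest genes were Id1 and Id2, at places 1 and 2 in HFD, and for Id2 they were Id3 and Id1, also at places 1 and 2. Next for Id3 came Igfbp7, a secreted binding protein also made by endothelial cells, with an r of 0.19 in HFD and 0.18 in CD, and of 0.11 in HFD and 0.16 in CD without endothelial UMIs. For Id1 came Arc, Igfbp7 and Junb, and without endothelial UMIs Igfbp7 was no longer among the 5 nearest. Smad7 had no such company: its 5 nearest genes in CD, led by Sgpp2, all had an r under 0.05 in HFD. Sox4 was closest to Gnas, with an r of 0.13 in HFD and 0.22 in CD, and to Actb, Pcsk1n and Ptma, all abundant transcripts.

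A list of 17 genes that respond to tissue dissociation held immediate early genes, which are induced within minutes, and the heat shock chaperone genes Hspa1a, Hspa1b and Dnajb1. Of the 17, 7 reached an r of 0.1 with Id1 in both libraries: Fos, Jun, Junb, Egr1, Ier2, Dusp1 and Btg2. Among all 8417 genes, 13 did so. Without endothelial UMIs, 6 of the 17 and 11 of 8318 genes did so. Over all alpha cells the highest of the 17 was Junb, with 0.15 in each library. Without endothelial UMIs Junb gave 0.13 in HFD and 0.16 in CD, and the highest in HFD was Dusp1, at 0.14. With Id3 the count was 1 of 17, and with Id2 it was 0 of 17. In the richest of the 4 bins, Junb stood at 1150 CPM in HFD and 1325 CPM in CD, against 712 CPM in HFD and 872 CPM in CD in cells with none. The part of dissociation in the Id values was not tested.

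In beta and delta cells the r of Id1 with Id3 was lower once cells with an endothelial marker UMI were left out. In beta cells their r was 0.64 in HFD and 0.33 in CD, and 0.27 and 0.15 without an endothelial UMI. In delta cells it was 0.71 in HFD and 0.64 in CD, and -0.005 and 0.11 without. These last delta values rest on 2 HFD and 7 CD cells with Id1. Among endocrine classes only alpha cells kept an r above 0.3 in both libraries, and sparse counts hold r down. Of beta cells without an endothelial UMI, Id3 was found in 20% of HFD and 18.7% of CD cells with Id1. In those without Id1 it was found in 2.01% of HFD and 2.47% of CD cells. For alpha cells of this kind the shares were 41.1% and 50.5% with Id1, and 10.5% and 10.9% without, HFD before CD.

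In endothelial cells, Smad7 also correlated with Id1 and with Smad6. The share of all genes reaching such an r in endothelial cells is not given here. Id1 was also detected in a far larger share of endothelial than of alpha cells. Id1 and Id3 gave an r of 0.35 in HFD and 0.42 in CD, Id1 and Smad7 gave 0.26 and 0.19, and Smad6 and Smad7 gave 0.16 and 0.18. Besides Id3, Id1 was closest in CD to Sgk1, a serum- and glucocorticoid-induced kinase, with an r of 0.32 in HFD and 0.30 in CD. Itm2b, Id2 and Klf2, a shear-induced factor, came next in CD, and held places 7, 79 and 48 in HFD. Smad6 was closest in CD to the Notch target Hey1, the BMP receptor Bmpr2, Stmn2, the arterial connexin gene Gja4 and the co-receptor Eng. In HFD, Hey1 held place 51, Bmpr2 place 8, Gja4 place 17 and Eng place 301. Stmn2, at place 3 for Smad6 in CD, held place 1 in HFD, with an r of 0.30 in HFD and 0.26 in CD.

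Between the diets, 8 of the 30 pairs of gene and class with 50 UMIs or more differed at least 1.5-fold. For all genes, this share was 9.74% in alpha, 14.4% in beta, 11.4% in delta, 8.89% in PP and 11.3% in endothelial cells. By direction, 7.12% of genes were higher and 4.31% lower in HFD delta cells, 5.4% and 3.5% in PP cells, and 6.12% and 5.17% in endothelial cells. Against it stood 1 of 6 testable genes in alpha, 4 of 7 in beta, 1 of 6 in delta, 1 of 4 in PP and 1 of 7 in endothelial cells. The genes were chosen with the diet contrast known, so nothing is read from that. The summed endothelial marker levels given above were themselves higher in HFD endocrine cells. Values without cells holding an endothelial UMI are given for each endocrine pair past 1.5-fold, and the part of endothelial RNA in the ratios was not tested.

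Smad6 was lower in HFD endothelial cells, at 75.9 CPM against 126 CPM in CD, a ratio of 0.603 (log2 -0.73, interval -1.01 to -0.45). Id1 and Id3 were lower by less, with ratios of 0.794 and 0.779, and Smad7 was level, with a ratio of 0.987. Id4 had a log2 ratio of -0.33 (interval -0.66 to -0.0045) and Id2 of -0.16 (-0.41 to 0.08). Sox4, at 202 CPM in HFD and 175 CPM in CD, had a ratio of 1.15. Among the genes most like Smad6, Gja4 was also lower in HFD, at 90.8 CPM against 141 CPM in CD, whereas Stmn2 had a ratio of 0.965 and Hey1 of 0.897.

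Sox4 in beta cells rested on the most molecules of any of these differences. It stood at 66.5 CPM in HFD (4919 UMIs) and 102 CPM in CD (7989 UMIs), a ratio of 0.650 (log2 -0.62, interval -0.67 to -0.57). In beta cells without an endothelial UMI the levels were 65.4 CPM in HFD and 104.0 CPM in CD. Cells with 4 or more Sox4 UMIs numbered 210 of 7433 in HFD and 666 of 6515 in CD. In alpha cells Sox4 was also lower in HFD, with a ratio of 0.764, short of 1.5-fold. Counting every beta cell alike gave a log2 of -0.56, just short of the limit.

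Delta and PP cells went the other way for Sox4. Delta cells held 103.6 CPM in HFD and 65.8 CPM in CD, a ratio of 1.57 (log2 0.65, interval 0.40 to 0.91). PP cells held 49.5 CPM in HFD and 33.2 CPM in CD, a ratio of 1.49. Without cells holding an endothelial UMI, the ratios were 1.48 in delta and 1.76 in PP cells. PP cells thus lay just under 1.5-fold with all cells and past it without those cells, and delta cells the other way round.

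Id1 in alpha cells was 1.63-fold higher in HFD (log2 0.71, interval 0.48 to 0.93), at 44.4 CPM against 27.2 CPM in CD. Without endothelial UMIs it was just under 1.5-fold (log2 0.58, interval 0.32 to 0.84), from 37.4 CPM in HFD and 25.0 CPM in CD. Counting every cell alike, it was a log2 of 0.46. Id3 in alpha cells stood 1.20-fold higher in HFD, and 1.03-fold higher without endothelial UMIs. Id2 was at a ratio of 1.15 and Smad7 of 1.41, both short of 1.5-fold.

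In HFD beta cells Id1, Id3 and Smad6 were 2.14-fold, 1.93-fold and 2.51-fold above CD. With every beta cell counted alike, the log2 ratio was 0.33 for Id1 and 0.15 for Id3, both short of 1.5-fold. The thinned share of beta cells with an Id1 UMI was at or below that of macrophages, which rests on few cells, as given above. Without endothelial UMIs, Id1 was at 2.26 CPM in HFD and 1.44 CPM in CD, a ratio of 1.57, and Id3 at 3.70 and 3.17 CPM, a ratio of 1.17. Smad6 then had 4 UMIs in HFD and 2 in CD. In PP cells Id1 had 36 UMIs in HFD and 12 in CD, under the minimum of 50, at 11.1 CPM against 3.76 CPM. Id3 stood there at 16.1 CPM in HFD and 8.45 CPM in CD, a ratio of 1.90, and at 1.68 without endothelial UMIs, from 34 and 19 UMIs.

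**Figure D4:**
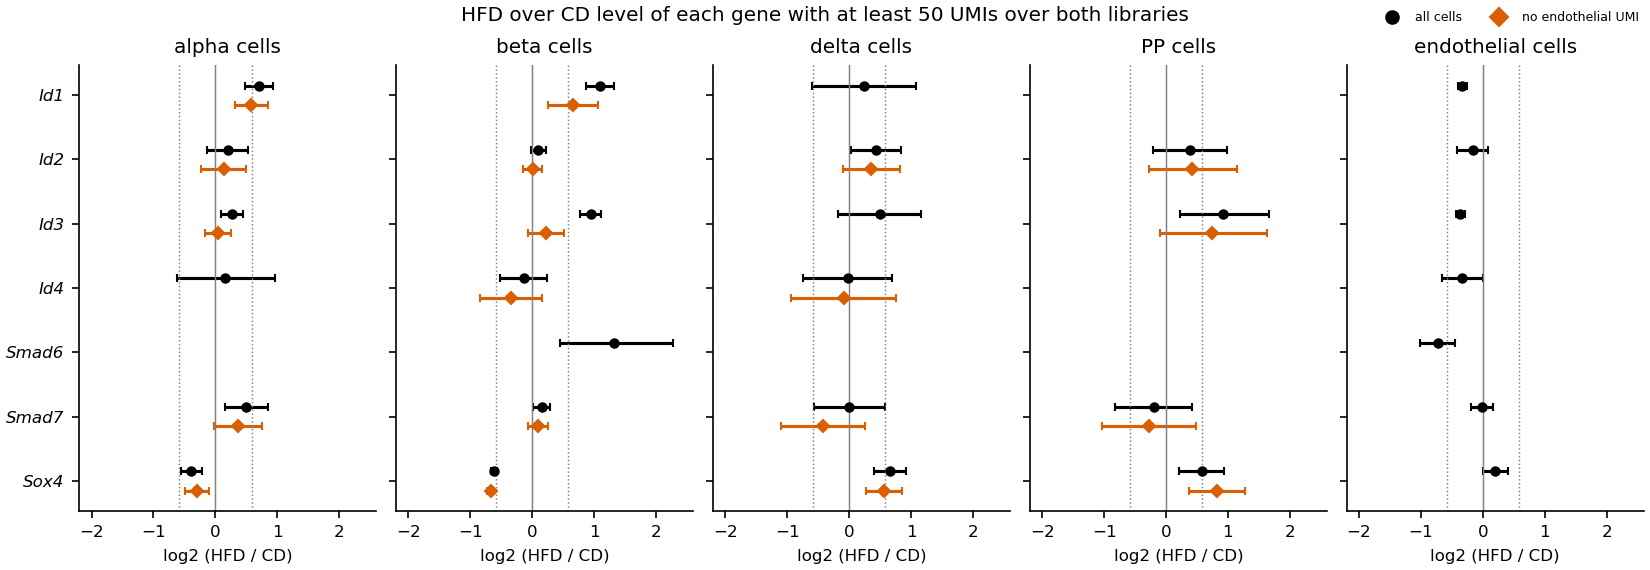
Log2 ratio of HFD over CD for each gene with at least 50 UMIs over both libraries, by cell class; circles use all cells, diamonds the cells without an endothelial marker UMI, bars are exact 95% intervals for counting error, and dotted lines mark 1.5-fold. Id1 and Id3 in beta cells shrink toward 0 without endothelial UMIs, while Sox4 keeps its direction in every endocrine class.

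The rest of the pathway was read from a list of 70 genes. In alpha cells 35 of them had 50 UMIs or more, of which 4 were at least 1.5-fold higher in HFD, Bmpr2, Eng and Hes1 among them, and 1 was lower (Bambi). Their median log2 ratio was 0.13, against -0.07 for all genes, and 4.27% of all genes were higher by this much and 5.47% lower. In beta cells 17 of 56 were higher and 1, Gdf15, was lower, with a median of 0.26 against -0.001 for all genes. Background shares there were 8.74% higher and 5.69% lower. Eng, an endothelial gene, and Twsg1 were both among the 17. Without endothelial UMIs Eng was level, at 0.614 CPM in HFD and 0.654 CPM in CD. Twsg1 then stayed 1.57-fold higher in HFD, at 155 CPM against 99.2 CPM in CD. The part of endothelial RNA in the 17 was not tested. Delta cells had 2 higher (Bmp3 and Ski) of 32, PP cells 1 (Smad5) of 29, and endothelial cells 5 higher and 4 lower of 38.

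Of the ligand genes, Inha and Bmp1 had the highest levels in alpha cells. Inha, the inhibin alpha chain, stood at 19.7 CPM in HFD and 18.2 CPM in CD, and Bmp1, a procollagen protease despite its name, at 11.9 and 9.16 CPM. In endothelial cells Tgfb1 stood at 282 CPM in HFD and 270 CPM in CD, and Inhbb, an activin chain, at 217 CPM in HFD and 128 CPM in CD, 1.69-fold higher.

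Receptors and Smads of the BMP arm were present in alpha cells. The type I receptor Bmpr1a stood at 60.7 CPM in HFD and 52.3 CPM in CD alpha cells. The type II receptor Bmpr2 stood at 42.0 CPM in HFD and 27.7 CPM in CD, 1.52-fold higher, and 1.46-fold without endothelial UMIs. Smad1 was at 42.9 CPM in HFD and 37.3 CPM in CD, and Smad4, the shared partner, at 48.7 CPM in HFD and 67.6 CPM in CD. Eng, an endothelial co-receptor, was at 8.87 CPM in HFD and 3.05 CPM in CD, and had 6 and 5 UMIs left without endothelial UMIs. In endothelial cells Eng reached 1102 CPM in HFD and 1216 CPM in CD and Bmpr2 596 and 609 CPM, while Bmpr1a had 7.78 and 5.62 CPM.

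Among inhibitors, Bambi, a receptor decoy that is itself induced by BMP and TGF-beta, was lower in HFD alpha cells. It stood at 143 CPM in HFD and 228 CPM in CD, a ratio of 0.627 (log2 -0.67, interval -0.77 to -0.58). Without endothelial UMIs it stood at 140 CPM in HFD and 226 CPM in CD. In beta cells it was at 142 CPM in HFD and 121 CPM in CD. Twsg1, a BMP-binding secreted protein, was 1.58-fold higher in HFD beta cells, at 155 CPM against 98.7 CPM in CD, and 1.29-fold higher in alpha cells. Skil, a repressor of Smad transcription, was at 58.0 CPM in HFD and 46.7 CPM in CD alpha cells. Pmepa1, a TGF-beta-induced inhibitor, was lower in HFD endothelial cells, at 258 CPM against 387 CPM in CD.

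Of the helix-loop-helix genes, Hes1, a Notch target and repressor, was 2.43-fold higher in HFD alpha cells, at 37.3 CPM against 15.4 CPM in CD. The ratio was 2.58 without endothelial UMIs, from 36.2 CPM in HFD and 14.1 CPM in CD. In beta cells Hes1 was at 13.0 CPM in HFD and 10.9 CPM in CD. The E protein genes Tcf12 and Tcf4 stood at 85.3 and 86.4 CPM in HFD alpha cells, against 69.3 and 67.8 CPM in CD. Neurod1 stood at 160 CPM in HFD and 156 CPM in CD alpha cells.

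Ctgf and Sox17 were lower in HFD endothelial cells, Ctgf at 39.6 CPM against 79.8 CPM in CD and Sox17, an arterial factor, at 51.1 CPM against 88.8 CPM in CD. Sox18 had a ratio of 0.732 there. In alpha cells Sox12, a SoxC relative of Sox4, stood at 19.7 CPM in HFD and 15.8 CPM in CD, and Sox5 at 7.82 and 7.12 CPM.

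**Figure D5:**
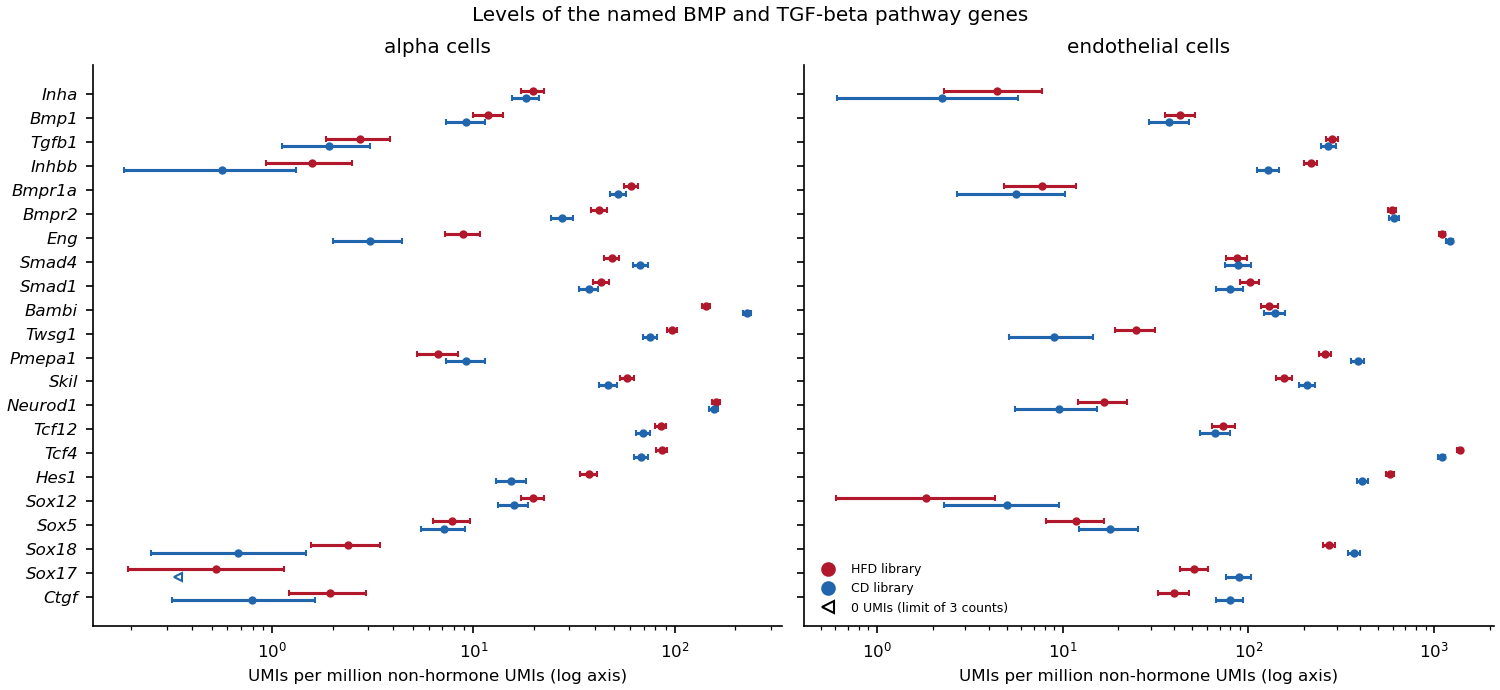
Level of pathway genes (CPM of non-hormone UMIs, log axis) in alpha and endothelial cells, HFD above CD; bars are exact 95% Poisson intervals and the open triangle marks the limit of 3 counts at 0 UMIs. In alpha cells Hes1, Eng and Bmpr2 lie higher and Bambi lower in HFD; in endothelial cells Sox17, Ctgf and Pmepa1 lie lower.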

How the data were processed

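Per the labels' protocols, islet cells of 2 libraries were processed with 10x Chromium 3′ v3 chemistry and sequenced on a NovaSeq. Per the submitters' processing notes, Cell Ranger 6.0.1 and mm10 were used, while the matrix header names software version 3.0.2. No annotation release is stated there. The authors deposited raw UMI counts per gene and barcode for all 6794880 possible barcodes, with 271527648 UMIs in HFD and 265836346 in CD. Of the gene IDs, 99.6% matched GENCODE M21.

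Cells were kept and classed by the limits in the report, the other hormones being below theirs. UMIs were summed per class and library. Levels were scaled to UMIs outside 5 hormone genes. Ratios carry conditional binomial intervals, levels Poisson intervals and shares Clopper-Pearson intervals. A gene counted as called at 1.5-fold or more with at least 50 UMIs over both libraries, and no test was made because there is 1 library per diet. Correlations used log1p of UMIs per 10000 non-hormone UMIs. The classes come from hormone and marker limits, not from the authors' annotation. Doublets were not removed in the main values beyond the hormone limits. As an alternative the highest scrublet scores were removed at 0.8% per 1000 cells, 1164 cells in HFD and 748 in CD. Named pathway genes were those past 1.5-fold in alpha cells and, per role, the 2 highest in alpha and the 2 highest in endothelial cells. Genes most like a member were the 5 with the highest r in CD. Some genes that these rules name are not reported here. Genes named outside these rules were chosen after their values were seen. The members and lists were chosen with earlier results of these data known. Ratio, interval, thinning and correlation steps were tested on simulated data. Python 3.11.15, numpy 2.4.6, scipy 1.17.1, scanpy 1.11.5, R 4.3.3 and edgeR 4.0.16 (TMM factors) were used.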

Additional observations from a re-analysis of the deposited data

Results flagged for a closer look

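Smad6 differed between the diets in opposite directions in beta and endothelial cells. The log2 ratio of HFD over CD was 1.33 in beta cells and -0.73 in endothelial cells. The beta value came from 38 UMIs in HFD and 16 in CD, of which 4 and 2 lay in cells without an endothelial marker UMI. The difference between the classes was not tested.

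Sox4 also went in opposite directions, with a log2 ratio of 0.65 in delta cells and -0.62 in beta cells. Both kept their sign in every alternative run, between 0.56 and 0.75 in delta cells and between -0.69 and -0.56 in beta cells. This difference was not tested either, since each diet has 1 library.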

How the results depend on the processing

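No paired analysis was possible because each diet has 1 library, both numbered 1. The 8 differences between the diets became 4 when every cell counted alike, 14 with estimated free RNA subtracted, 13 at a minimum of 1 UMI, and 5 when endocrine cells with 2 or more stromal marker UMIs were left out. They became 5 without cells holding 2 or more endothelial UMIs and 5 without cells holding any, both chosen after seeing the data. Over the 5 classes, the pathway list gave 35 calls past 1.5-fold among 190 tested pairs of gene and class. These became 136 of 323 at a minimum of 1 UMI and 13 of 110 at a minimum of 200. They became 28 of 186 without cells holding 2 or more endothelial UMIs and 33 of 178 without cells holding any. The 13 pairs away from beta cells became 20 on all UMIs. The 5 correlated pairs became 2 when thinned and 3 in each of 4 settings: without 2 or more stromal UMIs, with stricter hormone limits, and without 2 or more or any endothelial UMIs. Against beta cells in CD, on all UMIs as the total, Sox4 turned to 0.13 in alpha and 0.46 in delta cells. Id3 in CD delta cells turned to -0.20 with every cell counted alike and to -0.37 without stromal UMIs. Thinned, r in HFD alpha cells turned to -0.0043 for Id1 and Smad6 and to -0.0047 for Id3 and Smad6. The cause was not tested. Smad6 in endothelial cells stayed between -0.75 and -0.63 in every alternative run, past 1.5-fold throughout. Id1 in alpha cells ranged between 0.46 and 1.17, short of 1.5-fold with every cell counted alike, with stricter hormone limits and without stromal or endothelial UMIs. Scaling alternatives moved the median gene by less than 0.1 in log2. Depth limits Smad6 outside endothelial cells and all PP values.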
